A study of Schizosaccharomyces pombe with 4 samples.

Results

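Of the 9 genes described here, tpx1, srx1, trx1, trx2 and trr1 belong to the thioredoxin and peroxiredoxin system of the fission yeast Schizosaccharomyces pombe. The others are the superoxide dismutase gene sod1, the glutathione genes gst2 and gcs1, and pap1, which encodes the transcription factor Pap1. All 9 were taken by systematic identifier from a count table of 7049 genes and had enough reads to be tested. RNA was sequenced after removal of ribosomal RNA in 2 libraries of delta4dus, a strain in which all 4 genes for dihydrouridine synthases (dus1 to dus4) are deleted, and 2 libraries of wild-type. Dihydrouridine synthases reduce uridine to dihydrouridine in RNA. Both strains were grown in the rich medium YES at 32 °C, without an added oxidant named in the labels, and the question is whether transcript levels of these genes differ between the strains. The labels number the libraries of a genotype 1 and 2 and do not say whether they came from separate cultures, so p-values measure the spread between these libraries, which may be technical. The extent of each dus deletion and the strain backgrounds are not stated in the labels.

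Peroxiredoxins reduce hydrogen peroxide with a reactive cysteine. Thioredoxins return that cysteine to its reduced state, and thioredoxin reductase recharges the thioredoxins with electrons from NADPH. In S. pombe the peroxiredoxin Tpx1 also passes the peroxide signal on to Pap1, a bZIP factor of the AP-1 type. Oxidised Pap1 is no longer exported by Crm1, collects in the nucleus and switches on detoxifying genes, among them the catalase gene ctt1, trr1 and srx1.

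The libraries held 264948323 to 495098038 counts, of which ribosomal RNA genes took 84.7% to 90.7%, the highest share being in delta4dus replicate 2. Without them, 40203853 to 59273688 counts remained per library. Normalised read counts of dus1, dus2, dus3 and dus4 were lower in both delta4dus libraries than in both wild-type libraries. By edgeR's quasi-likelihood test, the log2 fold change of delta4dus over wild-type was -3.86 for dus1 (adjusted p = 0.00418), -2.95 for dus2 (adjusted p = 0.000224), -1.56 for dus3 (adjusted p = 0.000818) and -1.23 for dus4 (adjusted p = 0.626), so the change of dus4 did not pass. The call of dus1 was lost without wild-type replicate 2 (edgeR adjusted p = 0.0528), and that of dus3 with library totals alone (edgeR adjusted p = 0.0925).

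Sequences resembling the sites bound by AP-1-type factors of yeast are shown first, because Pap1 belongs to that family. The 300 bases upstream of each transcript start in the RefSeq annotation of ASM294v3 were searched on both strands for TTACTAA (whose reverse complement is TTAGTAA) and for the palindrome TTACGTAA, which do not contain each other. A match to the shorter motif was present at 4 of the 9 genes and at 12.7% of the 5144 coding genes searched. The longer motif matched none of the 9 and 0.544% of the coding genes. The matches are printed 5′ to 3′ on the strand of the gene, with the motif in capitals.
srx1: ctccaactaccTTACTAAgaacacaaacc
trx1: tttagctttgtTTACTAAttgtcaggttt
gst2: attgttattaaTTACTAAttaaaatgggt
gcs1: tacgaggactgTTAGTAAtataagcgaag
In ASM294v3 these stretches lie at chrII:377179-377207 (minus strand) for srx1, chrI:2625041-2625069 (plus strand) for trx1, chrIII:2296215-2296243 (minus strand) for gst2 and chrI:683787-683815 (plus strand) for gcs1. The motif's first base stands 184, 261, 127 and 36 bases before the annotated start in that order. The count table places the start of gst2 278 bases further upstream than RefSeq does, so the gst2 match lies inside the gene as it was counted. It places the start of sod1 1204 bases and that of trr1 655 bases further upstream. The whole search windows of sod1 and trr1 thus lie inside the spans as counted, and nothing upstream of those counted starts was searched. A match is a run of letters and says nothing about binding, and the genes without one may hold other sites.

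None of the 9 genes was called different between delta4dus and wild-type. By edgeR at an adjusted p under 0.05, 0 of 9 passed, against 5 of 6813 genes tested (0.0734%). At an unadjusted p under 0.05, 2 of the 9 passed (srx1 and sod1), against 7.57% of all genes. The replicate number as a block, which the labels do not support as a pairing, gave 4 of 9 calls, against 12.1% of all genes. DESeq2 called 0 of 9, against 0.802% of the genes it gave an adjusted p. In the authors' deposited table none of the 9 has an adjusted p under 0.05, against 0.716% of the genes with a value there. The log2 fold change was below 0 for all 9 genes, with a median of -0.15, while 50% of all genes tested and 56.5% of coding genes lay below 0 (median of coding genes -0.02). Without wild-type replicate 1 the median of the 9 was -0.02 and 7 of them lay below 0, and with any other library left out the median was between -0.12 and -0.10. In 4 of the 9 (tpx1, srx1, trx1 and sod1) both delta4dus libraries lay below both wild-type libraries. They did so in 19.7% of all genes tested and in 1206 of 5059 coding genes. In none of the 9 did both lie above, against 19% of all genes tested and 812 of 5059 coding genes.

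**Figure D1:**
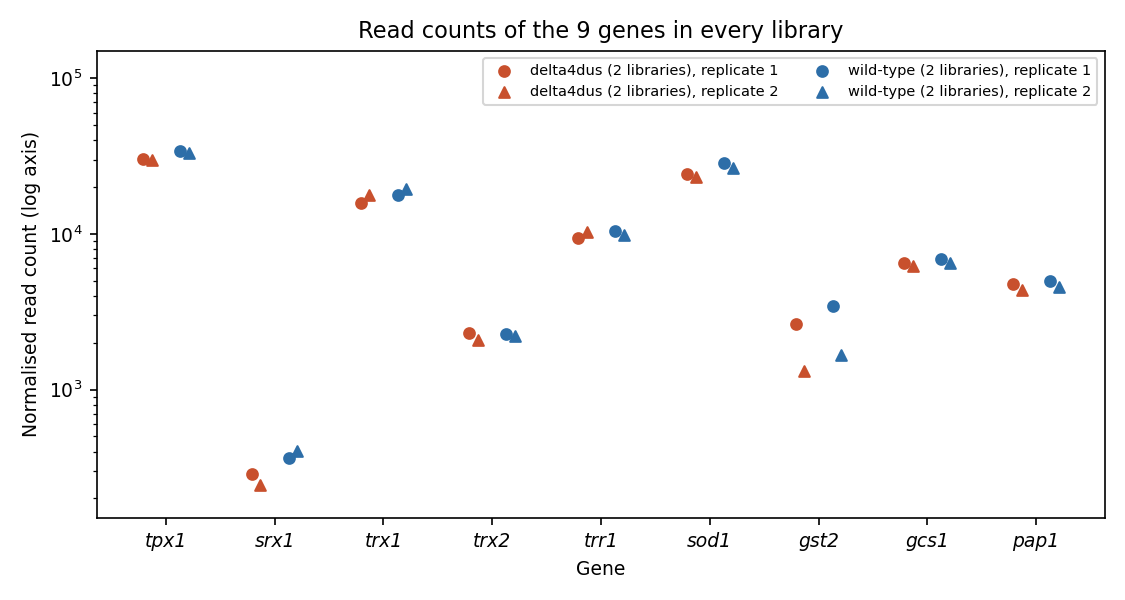
Normalised read counts (log axis) of the 9 genes in each library, with delta4dus in orange left of wild-type in blue, circles for replicate 1 and triangles for replicate 2. Counts span 245 for srx1 to 34051 for tpx1, and the strains lie close together for each gene, while the 2 libraries of each strain stand about 2-fold apart for gst2.

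The peroxiredoxin gene tpx1 (SPCC576.03c, chromosome III, 2084942 to 2085706, minus strand, build ASM294v2 as for all gene positions here) had the most reads of the 9. Its normalised read count was 30302 and 30012 in the delta4dus libraries, against 34051 and 32970 in wild-type. The values of the strains did not overlap, and replicates lay close together. Means were 30157 ± 205 in delta4dus and 33510 ± 765 in wild-type (SD, n = 2 libraries each). On the log2 scale the difference was -0.15 (SE 0.0688, 95% interval -0.32 to 0.02), which did not pass (edgeR adjusted p = 0.682). The 3 coding genes whose profile over the 4 libraries was most like that of tpx1, by the root mean square difference of mean-centred log2 counts among 5050 coding genes, were cnp1 (0.00227), byr3 (0.00404) and med11 (0.00519). A profile over 4 libraries is short, and whether these genes share regulation with tpx1 was not tested.

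Reads of tpx1 may in part be shared with neighbours on its strand. The non-coding RNA gene SPNCRNA.1258 overlaps it by 89 bases and SPNCRNA.1259 by 9. SPNCRNA.1258 had normalised counts of 2759 and 3184 in delta4dus and 2966 and 3560 in wild-type, all below the level of tpx1 (log2 fold change -0.13, edgeR adjusted p = 0.837). SPNCRNA.1259 had 1439 and 1538 in delta4dus and 1822 and 1817 in wild-type (log2 fold change -0.29, edgeR adjusted p = 0.524).

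Sulfiredoxin, encoded by srx1 (SPBC106.02c, chromosome II, 376253 to 377036, minus strand), repairs peroxiredoxin that has been over-oxidised by peroxide. It had the fewest reads of the 9 and, by the fitted value, the largest difference. Raw counts were 383 and 224 in delta4dus and 362 and 337 in wild-type, which became normalised counts of 288 and 245 in delta4dus, against 365 and 405 in wild-type. Every delta4dus value was below every wild-type value. The means were 267 ± 30.6 in delta4dus and 385 ± 28.6 in wild-type (SD, n = 2 libraries each). The log2 fold change was -0.53 (SE 0.153, 95% interval -0.91 to -0.14), with an unadjusted p of 0.016 and an adjusted p of 0.626 by edgeR, so it did not pass. Leaving out a library moved it between -0.65 (without delta4dus replicate 1) and -0.42 (without delta4dus replicate 2).

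The levels of srx1 and its substrate gene can be set against each other inside a library, which removes the scaling between libraries. Reads of srx1 per kilobase were 0.929% and 0.797% of those of tpx1 in delta4dus, against 1.05% and 1.20% in wild-type. Both delta4dus ratios were below both wild-type ratios, a log2 difference of -0.38. An exact two-sided permutation test gave p = 0.333, the smallest value that 2 libraries against 2 allow. The non-coding RNA gene SPNCRNA.1350 overlaps srx1 by 61 bases on its strand and had 114 and 114 normalised counts in delta4dus and 132 and 111 in wild-type, so its values overlapped between the strains. On the other strand, mph1, a spindle checkpoint kinase gene, overlaps srx1 by 40 bases and had a log2 fold change of 0.09 (edgeR adjusted p = 0.795), which was -0.33 with library totals alone.

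**Figure D2:**
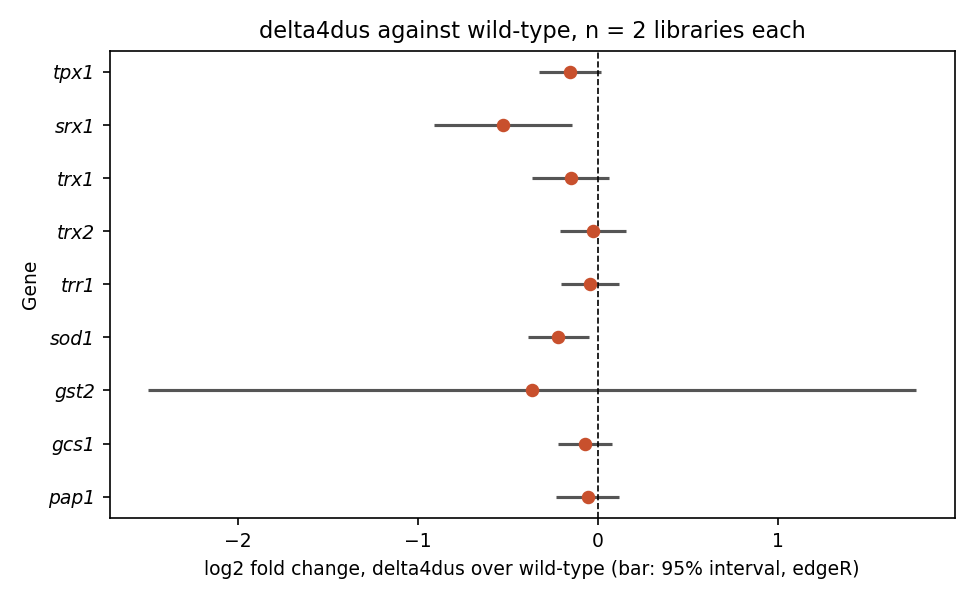
Log2 fold change of delta4dus over wild-type for each of the 9 genes, with points for the edgeR estimate and bars for its 95% interval. The intervals of srx1 (-0.91 to -0.14) and sod1 (-0.39 to -0.05) lie below 0 before any adjustment, and that of gst2 (-2.50 to 1.77) is the widest.

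The cytosolic thioredoxin gene trx1 (SPAC7D4.07c, chromosome I, 2625316 to 2625855, plus strand) had normalised counts of 15762 and 17839 in delta4dus, against 17847 and 19422 in wild-type. The upper delta4dus value and the lower wild-type value nearly met. For trx1 the log2 fold change was -0.15 (SE 0.0854, 95% interval -0.36 to 0.06, edgeR adjusted p = 0.73). The mitochondrial thioredoxin gene trx2 (SPBC12D12.07c, chromosome II, 2317361 to 2318581, minus strand) had 2321 and 2075 in delta4dus, against 2268 and 2216 in wild-type, and both wild-type values lay between those of delta4dus. Its log2 fold change was -0.03 (SE 0.0733, 95% interval -0.21 to 0.16, edgeR adjusted p = 0.951), and its sign turned to 0.05 without delta4dus replicate 2.

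Thioredoxin reductase, encoded by trr1 (SPBC3F6.03, chromosome II, 4189144 to 4191448, plus strand), had normalised counts of 9455 and 10286 in delta4dus, against 10404 and 9905 in wild-type. The strains overlapped, with a log2 fold change of -0.04 (SE 0.0644, 95% interval -0.20 to 0.12, edgeR adjusted p = 0.919) that became 0.02 without delta4dus replicate 1. These intervals leave room for differences of up to about 0.36 on the log2 scale for trx1 and about 0.2 for trx2 and trr1.

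Within a library, trx2 stood at 6.98% and 5.51% of the reads per kilobase of trx1 in delta4dus and at 6.03% and 5.41% in wild-type. The ratio of trr1 to trx1 was 16.1% and 15.5% in delta4dus and 15.7% and 13.7% in wild-type. These percentages depend on the gene lengths of the count table, which gives trr1 2006 bases where RefSeq ASM294v3 gives 1351. Both pairs of ratios overlapped between the strains (log2 differences 0.12 and 0.11, exact two-sided permutation p = 0.667 for each, where 0.333 is the smallest possible). The coding sequences of trx1 and trx2, of 312 and 402 bases in ASM294v3, were 48.3% identical in a global alignment, with no identical run over 8 bases.

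Features on the other strand lie across 3 of these genes. The protein-coding gene SPAC7D4.08 overlaps trx1 by 17 bases, srb11, which encodes the C-type cyclin of the Mediator kinase module, overlaps trx2 by 294 bases, and the non-coding RNA gene SPNCRNA.1678 covers 1620 bases of the span of trr1. The library kit keeps the strand, per the labels, and no source used here gives the strand setting of the counting. SPNCRNA.1678 had 250 and 268 normalised counts in delta4dus and 271 and 257 in wild-type, far below trr1. Fold changes on the log2 scale were -0.03 for SPNCRNA.1678, -0.20 for srb11 and -0.22 for SPAC7D4.08, and none passed (edgeR adjusted p = 0.978, 0.695 and 0.769).

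The copper-zinc superoxide dismutase gene sod1 (SPAC821.10c, chromosome I, 1002838 to 1004804, minus strand) encodes the cytosolic enzyme that turns superoxide into hydrogen peroxide. Its normalised count was 24071 and 23222 in delta4dus, against 28423 and 26655 in wild-type. The strains did not overlap, and the gap between them was wider than the gap between libraries of either strain. The means were 23647 ± 600.3 in delta4dus and 27539 ± 1250 in wild-type (SD, n = 2 libraries each). The log2 fold change was -0.22 (SE 0.0678, 95% interval -0.39 to -0.05), with an unadjusted p of 0.0201 and an adjusted p of 0.626 by edgeR. For sod1, the authors' deposited table lists a difference of -0.22 on the log2 scale (SE 0.0734, adjusted p = 0.209). It did not pass in either.

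Glutathione, the other main thiol of the cell, is made in a pathway that starts with glutamate-cysteine ligase, the product of gcs1 (SPAC22F3.10c, chromosome I, 683990 to 686347, plus strand). Its normalised count was 6540 and 6224 in delta4dus, against 6936 and 6473 in wild-type, with overlap between the strains. Its log2 fold change was -0.07 (SE 0.0592, 95% interval -0.22 to 0.08, edgeR adjusted p = 0.83), the narrowest interval of the 9.

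The glutathione S-transferase gene gst2 (SPCC965.07c, chromosome III, 2294617 to 2296383, minus strand), whose product couples glutathione to toxic compounds, differed more between libraries of a strain than between strains. Its normalised count was 2639 and 1319 in replicates 1 and 2 of delta4dus, against 3426 and 1674 in replicates 1 and 2 of wild-type. Replicate 1 was 2.00-fold above replicate 2 in delta4dus and 2.05-fold in wild-type. A difference of at least 2-fold in the same direction within both genotypes was found in 1 of the 9 genes, against 1.66% of all genes tested. In the other 8 members, the 2 libraries of a strain differed by at most 0.23 on the log2 scale. Between strains, the estimate for gst2 was -0.36 on the log2 scale with an SE of 0.619 and a 95% interval of -2.50 to 1.77 (edgeR adjusted p = 0.928). It was -0.96 without delta4dus replicate 1, 0.05 without delta4dus replicate 2, 0.24 without wild-type replicate 1 and -0.79 without wild-type replicate 2, so its sign changed with the library left out. Between libraries of the same number, delta4dus was the lower both times, and with the replicate number as a block, a pairing the labels do not state, gst2 was called (edgeR adjusted p = 6.5e-07). What distinguished the libraries numbered 1 from those numbered 2 is not given in the labels.

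Whether reads were shared between gst2 and its paralogue gst1 was not tested. The coding sequences were 76.4% identical, the longest identical run of the alignment was 19 bases, and gst1 had 59.5 and 68.9 normalised counts in delta4dus and 45.4 and 57.8 in wild-type.

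**Figure D3:**
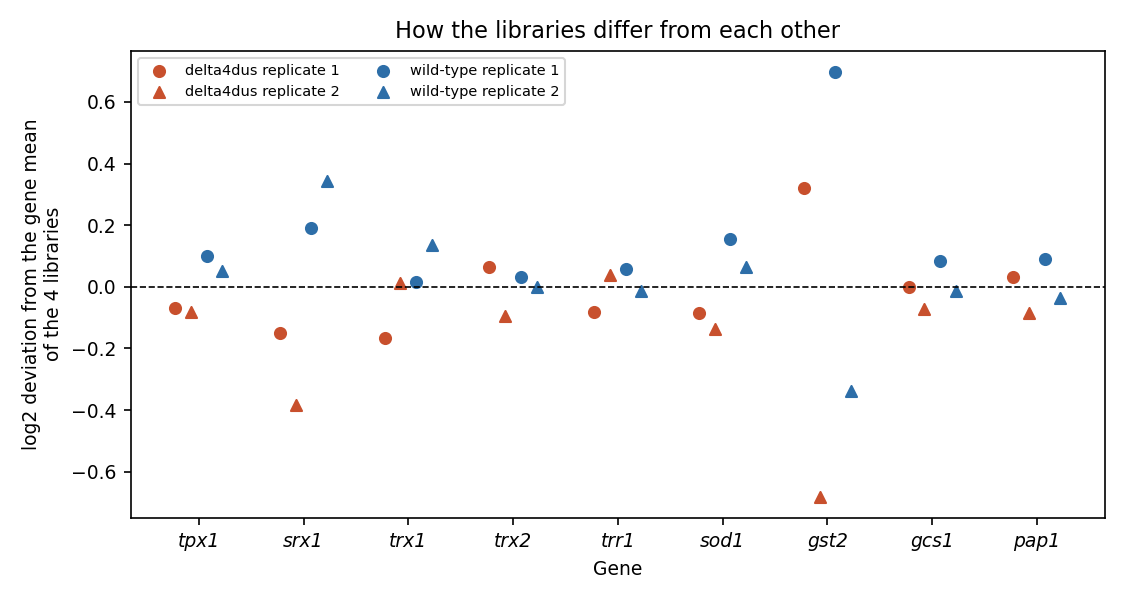
Deviation of each library from the mean log2 normalised count of the gene, with delta4dus in orange, wild-type in blue, circles for replicate 1 and triangles for replicate 2. For gst2 both circles stand above both triangles, while for tpx1, srx1, trx1 and sod1 both orange points stand below both blue points, narrowly so for trx1.

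The regulator gene pap1 (SPAC1783.07c, chromosome I, 2200353 to 2203135, minus strand) had a normalised count of 4757 and 4386 in delta4dus, against 4955 and 4545 in wild-type. The strains overlapped, and the first-numbered library was the higher one in each. For pap1 it was -0.05 on the log2 scale (SE 0.0697, 95% interval -0.23 to 0.12, edgeR adjusted p = 0.906), and it was 0.0036 without delta4dus replicate 2 and 0.0085 without wild-type replicate 1. Pap1 is controlled mainly by oxidation and export of the protein, which RNA counts do not show. The coding genes with the most similar profile over the 4 libraries were lsm3, exo2 and dim1, with root mean square log2 differences of 0.00383, 0.00454 and 0.00692. They are the closest of 5050 coding genes, and whether they share regulation with pap1 was not tested.

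Levels of different genes were compared as normalised reads per kilobase of the gene length in the count table. Over the 4 libraries tpx1 stood highest, at 39231 to 44511, above 96.7% of the coding genes tested. It was followed by trx1 at 29189 to 35968, sod1 at 11806 to 14450, trr1 at 4713 to 5186, gcs1 at 2954 to 3292, trx2 at 1822 to 2038, pap1 at 1576 to 1780, gst2 at 746 to 1939 and srx1 at 313 to 517, all per kilobase. Neighbours in this order did not overlap across the libraries, except pap1 and gst2, whose order turned in wild-type replicate 1. The place of sod1 depends on its length. The count table gives it 1967 bases and RefSeq ASM294v3 gives 763, and with RefSeq lengths sod1 reached 30435 to 37251 per kilobase, which overlapped trx1 at 29027 to 35769.

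Genes around this system showed no called change either in fits without a replicate block. The comparison took 55 other redox and Pap1 pathway genes in 5 lists, chosen with earlier results of these data known. Of these, edgeR called 0, against 0.0734% of all genes tested. DESeq2 also called 0, against 0.802% of the genes it gave an adjusted p. By edgeR, 5 had an unadjusted p under 0.05, against 7.57% of all genes. The median log2 fold change of the 55 was -0.03, with 34 of 55 below 0, against 56.5% of coding genes. The annotation does not place 3 of the 55 in this system: gto1 and gto2 are alpha-glucosidase genes and ccp1 encodes a chaperone of the centromeric histone CENP-A. Without them, 32 of 52 genes lay below 0 with a median of -0.03. None of the 55 was called in either direction in the edgeR and DESeq2 fits of genotype alone. The values below describe differences that did not pass there. With the replicate number as a block, a pairing the labels do not state, edgeR called 10 of the 55, against 12.1% of all genes. Among them were gpx1, txl1, grx1, sod2, pcr1 and oxs1, lower in delta4dus, and gto2, pmd1 and bfr1, higher in delta4dus.

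**Figure D4:**
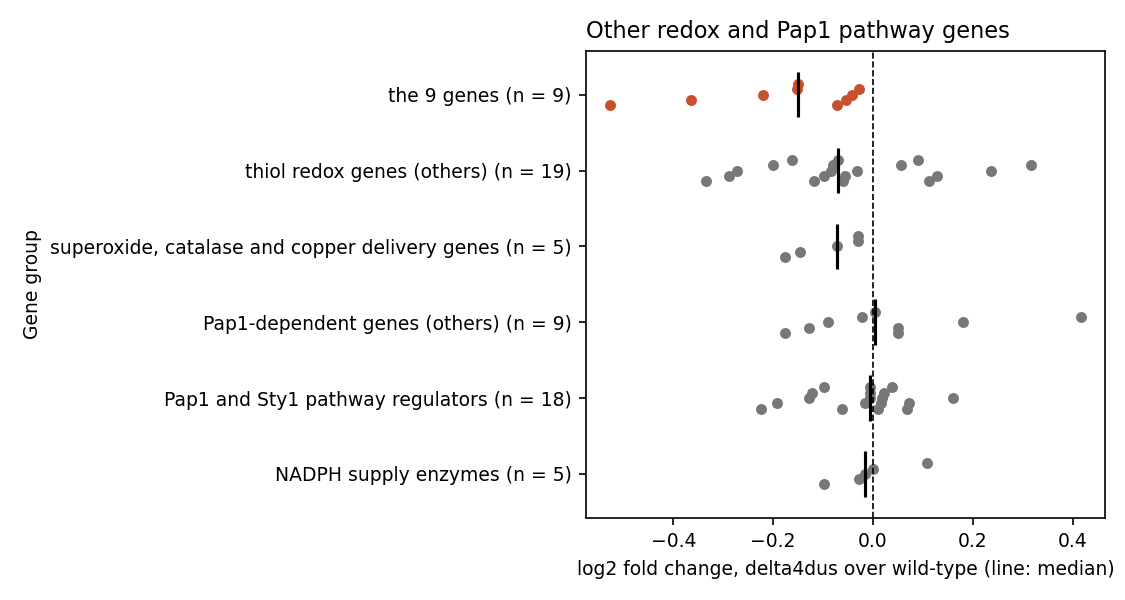
Log2 fold change of delta4dus over wild-type for the 9 genes (orange) and the other genes of 5 lists (grey), each point being 1 gene and each vertical line a median. The medians lie at -0.15 for the 9 genes and between -0.07 and 0.0038 for the 5 lists.

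Among 19 other thiol redox genes, 13 lay below 0 and the median log2 fold change was -0.07 (12 of 17 and -0.08 without gto1 and gto2). The glutathione peroxidase gene gpx1 had normalised counts of 3334 and 3229 in delta4dus, against 4166 and 3854 in wild-type (log2 fold change -0.29, edgeR adjusted p = 0.52). The thioredoxin-like gene txl1 had 3998 and 4004 in delta4dus, against 4711 and 4488 in wild-type (-0.20, edgeR adjusted p = 0.599). The glutaredoxin gene grx1 had 8681 and 7370 in delta4dus, against 10849 and 9388 in wild-type (-0.33, edgeR adjusted p = 0.628). In these 3 genes the strains did not overlap and delta4dus was the lower. In the alpha-glucosidase gene gto2 delta4dus was the higher, at 1093 and 1156, against 917 and 990 in wild-type (log2 fold change 0.24, edgeR adjusted p = 0.626; -0.19 with library totals alone). In all, 5 of the 19 lay apart as lower, against 19.7% of all genes and 1206 of 5059 coding genes. As higher, 4 lay apart, against 19% of all genes and 812 of 5059 coding genes. The other 3 in which delta4dus lay apart as higher, named after their values were seen, were grx5 (glutaredoxin; log2 fold change 0.11), mxr1 (methionine sulfoxide reductase; 0.09) and gst1 (0.32), at -0.32, -0.33 and -0.13 with library totals alone.

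The superoxide, catalase and copper delivery list had 5 of 5 genes below 0, with a median log2 fold change of -0.07 (4 of 4 and -0.09 without ccp1), and the strains overlapped in each of the 5. The values were -0.15 for sod2, the mitochondrial superoxide dismutase gene, -0.07 for ccp1, -0.03 for ccs1, the copper chaperone gene of Sod1, and -0.18 for the catalase gene ctt1. Of the 9 other Pap1-dependent genes 4 lay below 0, the median was 0.0038, and the strains overlapped in all 9. No gene of either list thus lay apart, against 19.7% of all genes tested as lower and 19% as higher. The drug efflux transporter genes pmd1 and bfr1 had log2 fold changes of 0.42 and 0.18 (edgeR adjusted p = 0.787 and 0.713), which ran from 0.16 to 0.65 and from 0.07 to 0.30 with a library left out, the sulfide quinone oxidoreductase gene hmt2 had -0.09 and sro1 had 0.05. For bfr1 the value was -0.25 and for sro1 -0.36 with library totals alone, and for sro1 it was also just below 0 without delta4dus replicate 1.

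Some Pap1-dependent genes varied by library number as gst2 did, but less. The count of ctt1 was 2531 and 1912 in replicates 1 and 2 of delta4dus, against 3214 and 1806 in wild-type, and that of obr1, which encodes a quinone reductase, was 9982 and 7936 in delta4dus, against 11790 and 6399 in wild-type. Replicate 1 exceeded replicate 2 in both strains in 6 of the 9 other Pap1-dependent genes and in 6 of the 9 members, against 35.6% of all genes tested. In the other lists it did so in 9 of 19 thiol redox genes and 3 of 5 superoxide, catalase and copper delivery genes. For the regulators it was 7 of 18 and for the NADPH list 1 of 5. In the Pap1-dependent gene bfr1 replicate 2 was the higher, at 13870 and 15330 in replicates 1 and 2 of delta4dus, against 11895 and 13872 in wild-type. The genes ctt1 and obr1 were named here after their values were seen.

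Regulators of Pap1 and of the stress kinase Sty1 numbered 18, with 10 below 0 and a median log2 fold change of -0.01. Lower values in delta4dus without overlap were seen in 5 of the 18, against 19.7% of all genes and 1206 of 5059 coding genes. They were pcr1, the bZIP partner of Atf1 (log2 fold change -0.19), prr1, the response regulator that acts with Pap1 (-0.12), mcs4, a response regulator upstream of Sty1 (-0.13), oxs1, a Pap1 co-factor gene (-0.22), and sty1 itself (-0.10). The edgeR adjusted p-values of these 5 ran from 0.643 to 0.771. The genes of 5 enzymes that produce NADPH or supply sugar phosphates to its production had a median log2 fold change of -0.02, with -0.10 for zwf1 (glucose-6-phosphate dehydrogenase), 0.11 for idp1 (isocitrate dehydrogenase), -0.03 for tal1 (transaldolase) and -0.02 for tkt1 (transketolase). With library totals alone idp1 lay at -0.31.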

How the data were processed

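The members and lists were chosen with earlier results of these data known. Of the 2 deposited tables, 1 gives raw counts per gene for the 4 libraries, and every count column belongs to a sample. The submitters' processing notes name Trimmomatic 0.36 for trimming, TopHat2 for alignment, featureCounts for counting and the build ASM294v2, and counting options are not stated there.  The other, the authors' deposited comparison, gives per gene a mean normalised signal, a log2 fold change with its error, a test score and p-values; DESeq2 is named in the notes.

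Here, edgeR 4.0.16 (R 4.3.3) was run with filterByExpr (minimum count 10, minimum total 15; 6813 genes kept), TMM scaling and a robust quasi-likelihood fit of genotype on 4 libraries, two-sided, with Benjamini-Hochberg adjustment over all genes tested and a threshold of 0.05. TMM factors were 1.09 and 0.662 in delta4dus and 1.23 and 1.13 in wild-type. Normalised counts are counts over the TMM-based relative library size. Alternatives were RLE scaling, library totals alone, other filters, DESeq2 1.42.0, a replicate block, fewer features and leaving out each library. Named genes were the members, up to 4 genes with the smallest p per list, overlapping genes, 3 nearest profiles for tpx1 and pap1, and the dus genes. Library totals are in the report; reads carry no molecular identifiers, so the spread between libraries sets the precision.

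Symbols came from RefSeq ASM294v3, matched for 6844 of 7049 genes; gene positions are those of the count table (ASM294v2). Upstream and coding sequences were read from the ASM294v3 genome by its own annotation. Of the 6844 matched genes, 99.3% share a start or an end coordinate between the annotations. The transcript starts of the members all differ between them, by 3 bases (trx1) to 1204 bases (sod1).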

Additional observations from a re-analysis of the deposited data

How the results depend on the processing

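No member passed under RLE scaling, library totals alone, either filter, DESeq2 with or without ribosomal RNA genes, edgeR without ribosomal RNA genes, coding genes alone or any left-out library; the fits of DESeq2 without ribosomal RNA genes and with RefSeq lengths were chosen after seeing the data. With the replicate number as a block, edgeR called 4 members (adjusted p = 6.5e-07 for gst2, 0.00271 for sod1, 0.00395 for srx1 and 0.0333 for trx1), 10 of the 55 listed genes and 825 of all genes (12.1%). The labels do not say that numbers mark pairs, and same-numbered libraries deviated together with a Pearson correlation of 0.635 across genes, which are not independent. Over all genes the main count of 5 became 52 with DESeq2 and 49 with DESeq2 without ribosomal RNA genes, and ran from 3 to 5 with a library left out. Library totals alone shifted the median log2 fold change of all genes to -0.42 and that of the members to -0.57; all 9 members then lay below that median. All 9 were below 0 in the main fit, and 8, 6, 7 and 9 without delta4dus replicate 1, delta4dus replicate 2, wild-type replicate 1 and wild-type replicate 2.

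With a library left out, the log2 fold changes whose sign turned ran from -0.12 to 0.051 for trx2, -0.10 to 0.015 for trr1, -0.96 to 0.24 for gst2, -0.12 to 0.0085 for pap1, -0.084 to 0.026 for ccs1, -0.53 to 0.30 for ctt1, -0.40 to 0.49 for obr1 (0.030 with the replicate block), -0.00089 to 0.096 for sro1, -0.069 to 0.013 for tal1, -0.15 to 0.11 for tkt1, -0.26 to 0.0023 for SPNCRNA.1258, -0.080 to 0.017 for SPNCRNA.1678, -0.21 to 0.044 for SPNCRNA.1350, -0.12 to 0.014 for lsm3, -0.11 to 0.0074 for exo2 and -0.11 to 0.018 for dim1. The log2 difference of the trx2 to trx1 ratio ran from -0.050 to 0.29, that of srx1 to tpx1 from -0.49 to -0.27 and that of trr1 to trx1 from 0.013 to 0.21. With library totals alone, gto2 lay at -0.19, bfr1 at -0.25, sro1 at -0.36, idp1 at -0.31, mph1 at -0.33, grx5 at -0.32, mxr1 at -0.33 and gst1 at -0.13. The order of levels changed for 2 members in wild-type replicate 1 alone (pap1 and gst2) and for 2 with RefSeq lengths (sod1 and trx1). The cause of these changes was not tested. Of the members, srx1 had the fewest reads, at 224 to 383 counts per library.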
